A study of Mus musculus with 10 samples.

Results

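Histone genes were followed in RNA that an anti-FLAG antibody pulled down from neurospheres, the floating aggregates that adult neural stem cells (NSCs) of the mouse subependymal zone form in culture. The members were the genes whose name in the deposited matrix starts with Hist1h to Hist4h, H2af, H3f3 or H1f and whose biotype is protein-coding, which gave 58 of 15899 genes. Of these, 48 were replication-dependent genes (the Hist names) and 10 were grouped as replacement histones (H2af, H3f3 and H1f names). One further name, H2afy3, matched but is annotated as a processed pseudogene and was left out.

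The cultures were homozygous for a knock-in that adds a 3X-FLAG peptide to the C-terminal end of endogenous MEX3A (Mex3aFLAG/FLAG, here FLAG) or wild-type from the same background (WT), all from mice aged 10 weeks. Neurospheres were lysed after formaldehyde crosslinking (2 FLAG and 2 WT libraries) or without it in native conditions (3 FLAG and 3 WT libraries). Both were sonicated, and the antibody was the same in every library, so the WT libraries show RNA recovered without any tagged protein. The tag sits on the endogenous gene, so no foreign promoter drives it. Which animals or passages each replicate came from is not given in the labels, so p-values measure the spread between these libraries, part of which may be technical.

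Replication-dependent histone genes supply the core histones H2A, H2B, H3 and H4 and the linker histone H1 while DNA is copied in S phase. Their mRNAs usually lack introns and end not in a poly(A) tail but in a short conserved stem-loop, which the stem-loop binding protein SLBP holds during processing, export and translation. Replacement histones are made throughout the cell cycle from genes that mostly carry introns and give polyadenylated mRNAs. Libraries here were primed with random hexamers and without poly(A) selection, so mRNAs without a poly(A) tail could be recovered.

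The stem-loop was found in the genome after the stop codon of nearly all replication-dependent genes, and it is shown here because it separates the groups compared below. A stem of 6 paired bases starting with GG around a loop of 4 bases starting with TT lay within 150 bases after the stop codon in 45 of 48 Hist genes, in 1 of 10 replacement genes (H2afx) and in 7 of 12166 other protein-coding genes with an annotated stop codon (0.0575%). It began 21 to 54 bases after the stop codon. There were 7 distinct sequences, and 1 member is printed for each, 5′ to 3′ on the strand of the gene, from the RefSeq GRCm38 genome. Capitals mark the stem-loop and lower case its flanks.

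Hist1h1e, chr13:23621777-23621802, minus strand: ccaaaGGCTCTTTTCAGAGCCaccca
Hist1h4d, chr13:23581945-23581970, plus strand: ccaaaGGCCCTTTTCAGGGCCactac
Hist1h2bl, chr13:21715713-21715738, minus strand: tcaaaGGCTCTTTTAAGAGCCaccca
Hist1h4b, chr13:23757361-23757386, plus strand: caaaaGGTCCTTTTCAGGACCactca
Hist1h4i, chr13:22040961-22040986, minus strand: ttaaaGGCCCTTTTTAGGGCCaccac
Hist2h2ac, chr3:96220413-96220438, minus strand: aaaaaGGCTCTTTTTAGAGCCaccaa
H2afx, chr9:44335235-44335260, plus strand: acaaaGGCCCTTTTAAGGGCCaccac

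The form printed for Hist1h1e was shared by 28 members, among them all 5 H1 genes. The form of Hist1h4d was shared by 6 members, all H4 genes, and that of Hist1h2bl by 6 genes of H2B and H3. Hist1h2an, Hist1h3g and Hist1h4a had no match, and Hist1h2an had one when 1 unpaired position was allowed. When only the last 150 bases of the longest annotated transcript were searched, 14 of 48 Hist genes had a match, and 11 of the 46 stem-loops lay outside the gene interval given in the matrix.

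Replication-dependent genes also differed from most coding genes in structure. Their longest annotated transcript had a median of 578.5 bases against 3570 for all protein-coding genes in the matrix, 46 of 48 had a single exon (4.91% of protein-coding genes), and their median GC content was 56.1% against 49.4%. A median of 36.4% of their 75-base windows, the length of a read, also occurred in another annotated gene on either strand. Such a gene can overlap the member itself, as Gm20628 does over 488 bases of Hist2h3b on the opposite strand. A shared window is therefore not always a second copy. How reads with several matches were counted is not given in the sources used here. For 18 of 48 at least 50% of the windows were shared, so values of single genes are uncertain there. The MEX-3 recognition element, searched by its letters on the mRNA strand of the longest annotated 3′ UTR, occurred in 19 of 48 Hist and 8 of 10 replacement genes, against 78.4% of protein-coding genes, with a median 3′ UTR of 199 bases in the Hist genes that have one and 1455 in all protein-coding genes. Of the 48 genes, 41 lie on chromosome 13, 5 on chromosome 3, and 1 each on chromosomes 11 and 6.

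The deposited values are log2 values with almost equal quantiles from library to library, and no read depth could be recovered from them. Medians over all genes lay between 2.88 and 2.89. In FLAG native replicate 1, 329 genes shared the lowest value, and in FLAG native replicate 3, 178 did, against 1 to 3 in the other libraries. Mex3a, the tagged gene, was at 3.92 and 4.16 in the crosslinked FLAG libraries against 2.75 and 3.03 in WT, and at 5.95, 4.03 and 6.10 in native FLAG against 3.33, 3.52 and 2.89 in native WT. It was thus above every WT library of its protocol, but its adjusted p over all libraries was 0.0789 (log2 fold change 1.73 ± 0.37, SE). Of 11 neural stem cell markers 10 were in the matrix, with a median of 5.66 to 7.67 per library, and Fabp7 was called lower after crosslinking (-1.164 ± 0.27). Of 19 markers of other cell types 9 were in the matrix and none was called between protocols. Over all libraries the neuronal Rbfox3 was called lower in FLAG (-1.31 ± 0.17), with Snap25 at -0.64 ± 0.32. The endothelial Flt1 was called higher (2.23 ± 0.41), while the other endothelial genes, Kdr and Pecam1, were at -1.09 ± 0.53 and -0.58 ± 0.23. Their part in the histone results was not tested.

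Replication-dependent histone RNA was lower after crosslinking than in native pull-downs. The median of the 48 Hist genes was 1.12 and 0.64 in the FLAG crosslinked libraries and 0.80 and 0.43 in the WT crosslinked libraries. In native conditions it was 3.44, 1.70 and 2.66 in FLAG and 2.11, 1.99 and 0.78 in WT. Every crosslinked FLAG library was therefore below every native FLAG library, while WT native replicate 3 lay within the range of the WT crosslinked libraries. The median of the replacement histones lay between 2.96 and 3.79 in all 10 libraries. These are relative amounts of RNA in a pull-down, and no input library is among the 10. Recovery by the protocol, fewer cells with an RNA and less of it per cell cannot be told apart.

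**Figure D1:**
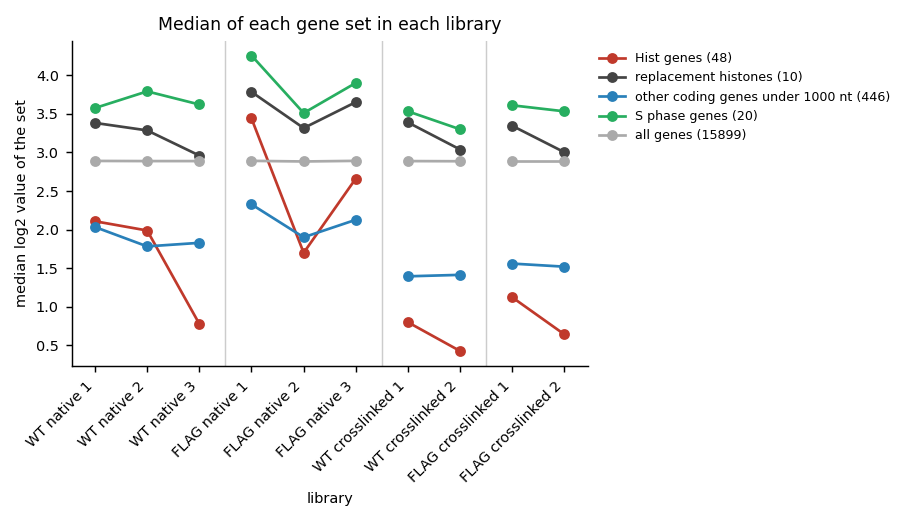
Median log2 value (y axis) of 5 gene sets in each of the 10 libraries (x axis), with lines joining replicates of 1 group. The Hist genes range from 0.43 to 3.44 while the replacement histones range from 2.96 to 3.79 and the median of all genes stays at 2.88 to 2.89; heights of different sets are not corrected for length.

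With both genotypes in 1 fit (limma, genotype as covariate, 4 crosslinked against 6 native libraries), 17 of 48 Hist genes were called lower after crosslinking, at an adjusted p under 0.05 and a fold of over 1.5, where 2.94% of all genes were called lower. No Hist gene was called higher, against 1.17% of all genes, and no replacement histone was called. The median log2 fold change of the Hist genes was -1.42, with 47 of 48 below 0, against -0.27 for the replacement histones and 0.06 for all genes. At an unadjusted p under 0.05 and the same fold, 37 Hist and 4 replacement genes were lower, against 7.06% of all genes. In 21 Hist genes and 1 replacement gene the crosslinked libraries lay below all native libraries of the same genotype in both genotypes, against 6.92% of all genes.

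The count of 17 depended on single libraries. It was 4 without FLAG crosslinked replicate 1, 5 without FLAG crosslinked replicate 2, 6 without WT native replicate 1, 7 without FLAG native replicate 3 and likewise 7 without WT crosslinked replicate 2, 9 without WT crosslinked replicate 1, 10 without FLAG native replicate 1, and 26 without WT native replicate 3. The 2 other libraries moved it less. Calls over all genes changed as well, from 467 lower to 225, 212, 272, 339, 286, 285, 415 and 493 in the same order. A pseudocount of 8 on the linear scale left 2 calls (0.918% of all genes lower) and a Hist median of -0.40. With FLAG native replicates 1 and 3 both left out, 6 genes were called and all were among the 17, with 367 lower over all genes.

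Within a genotype, deviations from group means in crosslinked and native libraries of the same number had correlations of 0.154 to 0.388. WT crosslinked replicate 1 and WT native replicate 3, of unlike number, had one of 0.232, so the pairing is uncertain. The comparison was repeated with the number within each genotype as a block. As the block was chosen from these data, its calls are no independent support. The native libraries of replicate 3 have no crosslinked partner and add nothing to this fit. It called 28 Hist genes lower, 16 of them among the 17, where 2.36% of all genes were lower, with a median of -1.61. It also called H2afx (-1.55 ± 0.20, adjusted p = 0.0162) and the H1 gene Hist1h1a, while Hist1h2bh passed the threshold no longer (adjusted p = 0.0544).

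Within WT alone, which carries no tagged protein, the median log2 fold change was -0.95 and 42 of 48 Hist genes were below 0. It was -1.43 with 46 of 48 below 0 without WT native replicate 3, and -0.731 without WT native replicate 1. Within FLAG alone it was -1.75, with 47 of 48 below 0, and ranged from -2.135 without FLAG native replicate 2 to -1.351 without FLAG native replicate 1. The replicate block gave -1.43 in WT and -1.73 in FLAG. Neither smaller fit called a member lower (0.0126% of all genes in WT, 0.0503% in FLAG). With the replicate block, which leaves 1 residual degree of freedom in either genotype, Hist1h4a, Hist1h4b, Hist1h4c, Hist1h4d and Hist1h2bl were called lower in WT (0.723% of all genes), and 34 Hist genes, H2afx and H1fx in FLAG (2.38%). The standard errors of these block fits rest largely on the variance trend over all genes, as for H3f3a at 0.40 in FLAG and 0.19 in WT. Their p-values say little about the spread of a single gene, and the counts of the 2 genotypes cannot be compared. Without the block, at an unadjusted p under 0.05 and the same fold, 16 Hist genes were lower in WT (4.24% of all genes) and 38 in FLAG (5.89%). The libraries of the 2 protocols did not overlap, crosslinked being lower, for 21 Hist genes in WT (12.5% of all genes) and 43 in FLAG (13.5%). Whether the protocol difference itself differed between the genotypes is the same contrast as the difference in the FLAG effect between protocols, given below, and no member was called there.

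**Figure D2:**
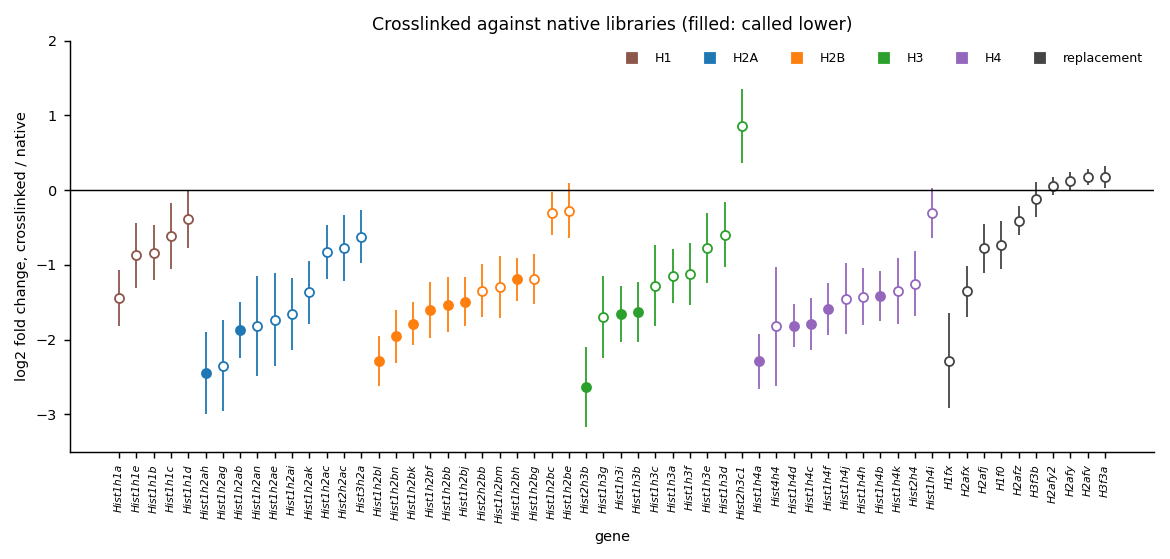
Log2 fold change of crosslinked over native libraries (y axis) with its standard error for each of the 58 genes (x axis), coloured by class and filled where called lower. All Hist genes but Hist2h3c1 lie below 0, and 17 are filled.

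H4 genes, whose protein pairs with H3 at the centre of the nucleosome, had a median of -1.45 and 5 of 11 called. Hist1h4d, with 3.67% of its windows shared, was at 2.99 and 2.53 in the FLAG crosslinked libraries and at 2.38 and 2.23 in the WT ones. In native conditions it was at 5.56, 4.01 and 4.83 in FLAG and 4.26, 3.97 and 3.43 in WT. The protocols did not overlap, and its log2 fold change was -1.81 ± 0.28 (SE, adjusted p = 0.00577). Hist1h4a, a gene without the stem-loop match, gave -2.29 ± 0.37 (adjusted p = 0.00723). Hist1h4b, Hist1h4c and Hist1h4f were called with log2 fold changes of -1.42, -1.80 and -1.59. Hist1h4h was at -1.43 ± 0.38 and missed the threshold (adjusted p = 0.0638), and Hist1h4i was at -0.31 ± 0.34.

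H2B, which pairs with H2A on the outside of the H3 and H4 core, had the highest count, with 7 of 12 called and a median of -1.42. Hist1h2bl was at 0.20 and 0.35 in FLAG crosslinked and -0.05 and -0.49 in WT crosslinked libraries. In native libraries it was at 3.28, 1.79 and 2.68 in FLAG and 2.71, 1.99 and 1.26 in WT. No crosslinked library reached a native one, and the log2 fold change was -2.29 ± 0.33 (adjusted p = 0.00379, the lowest among the members). The others called were Hist1h2bb, Hist1h2bf, Hist1h2bh, Hist1h2bj, Hist1h2bk and Hist1h2bn, between -1.20 and -1.96. Hist1h2bc and Hist1h2be, at -0.31 ± 0.29 and -0.27 ± 0.37, had annotated transcripts of 1156 and 2506 bases, while the called Hist1h2bh had one of 1679. Hist1h2be overlaps Hist1h1e by 496 bases on the same strand, so reads there cannot be assigned to one of them. Hist2h2bb had the highest level per kilobase of the members (log2 value per kb of exon 4.41) and was at -1.35 (adjusted p = 0.0625), but all of its windows were shared and Gm42743 overlaps its full 381 bases on the same strand.

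H2A had the lowest median, -1.70, but 2 of 10 genes called. Hist1h2ab was at 0.41 and 0.27 in FLAG crosslinked libraries against 3.39, 1.24 and 2.55 in FLAG native ones, and at 0.28 and -0.26 against 2.12, 1.75 and 1.24 in WT. Its protocols did not overlap (-1.87 ± 0.37, adjusted p = 0.019). Hist1h2ah gave -2.45 ± 0.55 (adjusted p = 0.0316), although 91.5% of its windows were shared with other transcripts and its FLAG crosslinked replicates lay far apart, at 0.25 and -2.36. Hist1h2ag, at -2.35 ± 0.61, missed the threshold (adjusted p = 0.057). Hist1h2ak and Hist3h2a were at -1.37 and -0.62, and neither was called. Hist3h2a lies inside Trim17 on the same strand.

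Among the H3 genes, 3 of 10 were called and the median was -1.21. Hist2h3b had the lowest log2 fold change of all members, -2.64 ± 0.54 (adjusted p = 0.0207). It was at -1.84 and -2.04 in FLAG crosslinked and -1.70 and -1.93 in WT crosslinked libraries, against 2.12, 0.39 and 1.96 in native FLAG and 0.50, 0.86 and -1.25 in native WT. Each crosslinked library was below each native one, but all windows of this gene were shared with other transcripts, and Gm20628 overlaps its full 488 bases on the opposite strand. Hist2h3c1 was the one Hist gene above 0 (0.86 ± 0.49, adjusted p = 0.369), and it too had all windows shared, overlapping Gm20634 over its full 1825 bases. Hist1h3b and Hist1h3i were called at -1.63 and -1.66, while Hist1h3e and Hist1h3f were at -0.78 and -1.13. A stretch of 75 bases in the coding sequence was identical in all 10 H3 genes.

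Linker histone H1 binds the DNA between nucleosomes. In the fit of both genotypes with equal weights, all libraries and no block, none of its 5 replication-dependent genes was called. Their median was -0.84. Hist1h1a was called lower after centring on protein-coding genes (3.13% of all genes lower) and with array weights (6.25%). It was also called without FLAG native replicate 2 (4.83%) or WT native replicate 3. Array weights in FLAG alone called it with Hist1h1b, Hist1h1c and Hist1h1e (4.79%). Hist1h1e was at 3.94 and 3.62 in FLAG crosslinked and 3.87 and 3.82 in WT crosslinked libraries, against 6.18, 4.19 and 5.54 in native FLAG and 4.11, 4.94 and 3.15 in native WT. The FLAG libraries of the protocols were apart and the WT libraries overlapped (-0.87 ± 0.44, adjusted p = 0.298). Hist1h1d was at -0.39 ± 0.39.

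**Figure D3:**
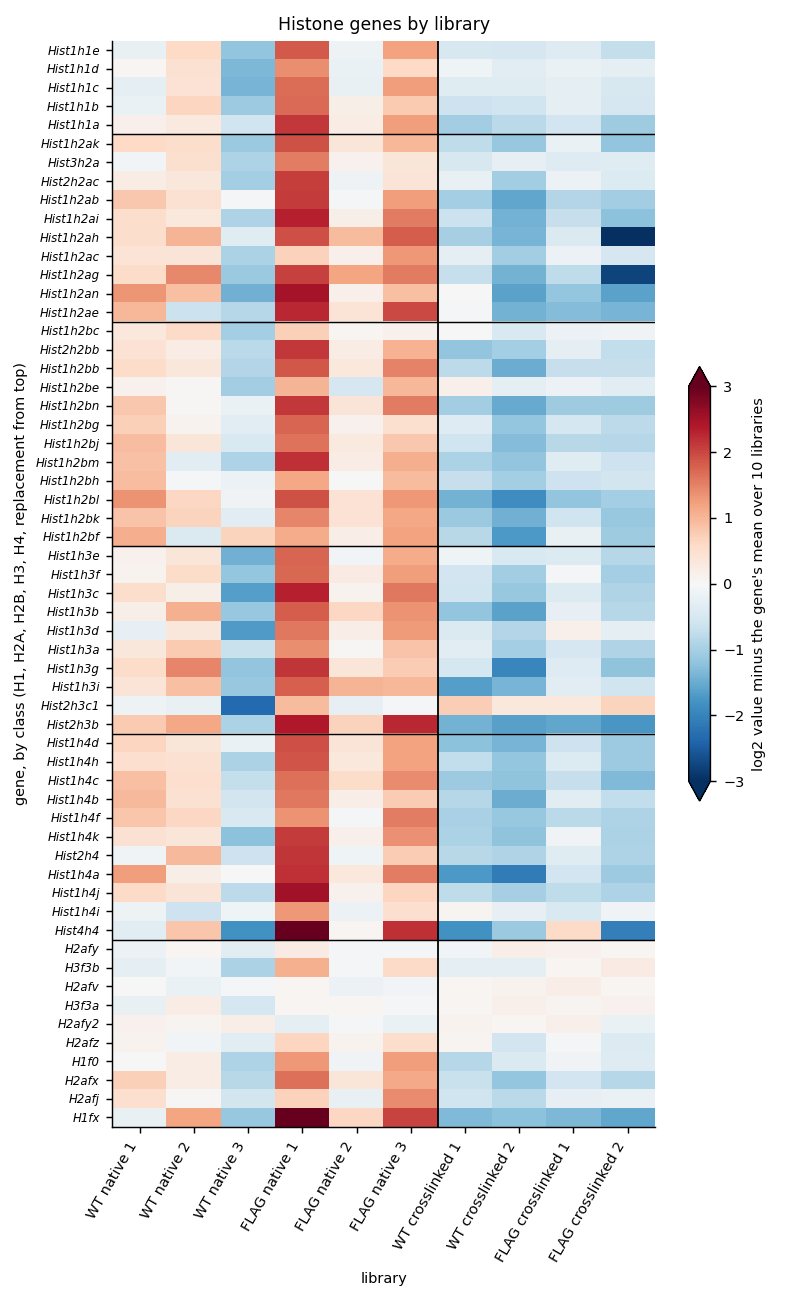
Log2 value of each histone gene minus its mean over the 10 libraries, in rows grouped by class with replacement histones at the bottom and libraries in columns, with colours clipped at 3 in either direction. FLAG native replicate 1 is the highest column for most Hist genes, and the 4 crosslinked columns are mostly below the mean.

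None of the replacement histones was called between protocols in the fit of both genotypes with equal weights, all libraries and no block. Up to 2 were called lower with array weights (6.25% of all genes lower) or without WT native replicate 3. Calls also arose after centring on protein-coding genes (3.13%) or removing the GC and length trends (2.95%). H3f3a and H3f3b, which encode the H3.3 variant placed outside replication, were at 0.18 ± 0.15 and -0.12 ± 0.23. The H2A.Z genes H2afz and H2afv were at -0.41 ± 0.19 and 0.18 ± 0.11, and the macroH2A genes H2afy and H2afy2 at 0.12 ± 0.12 and 0.06 ± 0.12. H2afx, whose protein is phosphorylated at DNA breaks and whose gene carries the stem-loop, was at -1.35 ± 0.34 (adjusted p = 0.0512). It was at 2.12 and 1.84 in FLAG crosslinked and 2.03 and 1.53 in WT crosslinked libraries, against 4.34, 3.06 and 3.82 in native FLAG and 3.40, 2.93 and 1.86 in native WT. Only WT native replicate 3 reached into the crosslinked range. H1fx, a linker histone with no stem-loop match and a GC content of 71.3%, was at -2.28 ± 0.63 (adjusted p = 0.0715). H1f0, a linker histone of resting cells, and H2afj were at -0.73 ± 0.33 and -0.78 ± 0.32. Per kilobase of exon the median log2 level was 1.26 for Hist genes and 1.99 for replacement histones in the crosslinked libraries, and 2.86 and 2.39 in the native ones.

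The size of the protocol difference went with annotated transcript length and base composition. In the Hist genes these 2 features go together, as in Hist1h2ai (393 bases, GC content 70.0%) and Hist1h1d (7425 bases, 39.8%), and cannot be told apart. The 34 Hist genes with a longest transcript under 1000 bases had a median of -1.56 and 15 called, and the 14 longer ones -0.73 and 2 called. Across the 48 Hist genes, which share libraries and sequence, Spearman's rho with the log2 fold change was 0.57 for exonic length and -0.58 for GC content. It was -0.41 for the share of windows also found in another annotated gene, overlapping genes included. Among short genes outside the histones a larger share was called lower than the 3.10% of all protein-coding genes. Of 446 other protein-coding genes with a transcript under 1000 bases, 138 were called lower (30.9%), with a median of -0.36, against 44.1% of the 34 short Hist genes. The 553 other protein-coding genes with a single exon had a median of 0.06 and 37 called (6.69%), and the 10 of these under 1000 bases had a median of -1.29 and 5 called. After the trends with GC content and length were removed from each library, 15 Hist genes were called lower, all among the 17, and 2.95% of all genes were. Of the 30 Hist genes with under 50% of their windows shared, 6 were called, and of the other 18, 11 were.

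**Figure D4:**
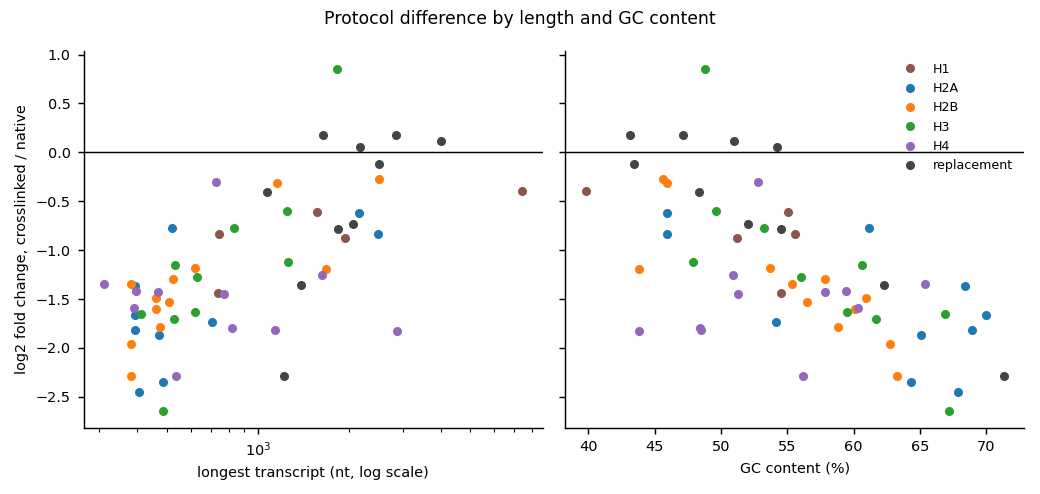
Log2 fold change of crosslinked over native libraries (y axis) against longest transcript length (left, log scale) and GC content (right) for the 58 histone genes, coloured by class. Short and GC-rich genes lie lower, with Hist2h3b at -2.64, Hist1h2ah at -2.45 and H1fx at -2.28.

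Replicates of 1 group differed in Hist level in a shared way. FLAG native replicate 1 was the highest of its 3 libraries for 45 of 48 Hist genes, and FLAG native replicate 2 was the lowest for 47. In native WT, replicate 3 was the lowest for 46 of 48. Over all genes each native library was the lowest of its group for 26.9% to 42.3% of genes. Crosslinked replicate 1 exceeded replicate 2 for 42 of 48 Hist genes in FLAG and for 42 in WT, where 52.9% and 50.7% of all genes did. FLAG native replicates 1 and 3 were also the libraries with the most genes at their lowest value, and the part of this in the Hist levels was not tested.

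FLAG against WT asks which RNAs came down with tagged MEX3A above the background of the antibody. No histone gene was called in any of these comparisons with equal weights and all libraries. Within either protocol alone, these fits called no gene of the matrix higher. The study, using DESeq2 on counts at the same thresholds, reports genes enriched in both protocols. Lack of a call here is therefore no evidence that an RNA was not bound. Array weights called 2 Hist genes higher and 2 lower over all libraries and 7 higher in native ones, and leaving out FLAG native replicate 2 called 17 higher in native ones and 1 over all, where 6.95% and 6.06%, 10.4%, 9.12% and 3.25% of all genes were called in the same order. Every Hist gene was above 0 over all libraries, but 25 of 48 lay below 0 with array weights, 10 with FLAG native replicates 1 and 3 both left out, 2 without WT native replicate 3 and 1 without FLAG native replicate 1. With the protocol as covariate the median log2 fold change of Hist genes was 0.67 (range 0.24 to 1.70) against 0.44 for replacement histones and -0.03 for all genes. Leaving out a library moved the Hist median between 0.397 (without WT native replicate 3) and 0.855 (without FLAG native replicate 2). With array weights it turned to -0.044, and the difference between Hist and replacement medians to -0.098. That difference was 0.062 without FLAG native replicate 1 and 0.345 without FLAG crosslinked replicate 2. None was called at the adjusted threshold, where 0.264% of all genes were higher, and adjusted p lay between 0.142 and 0.775 for the Hist genes. At an unadjusted p under 0.05 and the same fold, 10 Hist and 2 replacement genes were higher, against 7.24% of all genes. FLAG libraries lay above WT in both protocols for 1 Hist gene (Hist1h3i) and 1 replacement gene (H3f3b), against 4.84% of all genes.

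Hist1h3i was at 0.22 and -0.07 in FLAG crosslinked against -1.12 and -0.86 in WT, and at 2.33, 1.57 and 1.52 in FLAG native against 0.93, 1.45 and -0.60 in WT. FLAG was above WT in each protocol, by 1.155 ± 0.37 over all libraries (adjusted p = 0.142). H3f3b was at 5.19 and 5.40 against 4.84 and 4.84 in crosslinked libraries and at 6.22, 5.11 and 5.72 against 4.85, 5.06 and 4.19 in native ones. The groups were again apart in both, with a difference of 0.77 ± 0.23 (adjusted p = 0.13).

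Hist4h4, an H4 gene on chromosome 6, had the largest fold change over all libraries, 1.70 ± 0.78 (adjusted p = 0.239). It was at 0.44 and -2.19 in FLAG crosslinked against -1.96 and -1.26 in WT, and at 3.30, -0.09 and 2.04 in FLAG native against -0.48, 0.67 and -1.96 in WT. One FLAG library in each protocol lay among or below the WT libraries. The study lists this gene as enriched on these same libraries, so its direction here is no independent evidence. Next were Hist1h3d at 1.17 ± 0.42, Hist1h3i as given above and Hist1h3b at 1.08 ± 0.39, and the smallest were Hist1h2bc at 0.24 ± 0.28, Hist1h2an at 0.32 ± 0.65, Hist1h3a at 0.35 ± 0.35 and Hist1h2bh at 0.40 ± 0.28. Of the replacement histones other than H3f3b, H1fx was at 1.10 ± 0.62, H1f0 at 0.78 ± 0.32, H2afx at 0.69 ± 0.33, H2afj at 0.56 ± 0.32 and H2afz at 0.32 ± 0.19. H2afy, H3f3a and H2afv were at 0.12, 0.12 and 0.03, and H2afy2 was at -0.23, with no adjusted p under 0.13.

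In crosslinked libraries alone the Hist median was 0.21, with 34 of 48 above 0. It was 0.014 with 24 below 0 without WT crosslinked replicate 2, and 0.442 with 9 below 0 without WT crosslinked replicate 1. Without FLAG crosslinked replicate 1, 24 lay below 0, and without FLAG crosslinked replicate 2, 8 did. No member was called, as for 0% of all genes, and 3 Hist genes were higher at an unadjusted p under 0.05 and the same fold (2.78% of all genes). FLAG lay above WT for 14 Hist genes, where 19.1% of all genes did. In native libraries alone the median was 1.07 with 48 of 48 above 0, and it was 0.621 without WT native replicate 3 and 1.416 without FLAG native replicate 2. Again no member was called, against 0% of all genes, and 15 Hist genes were higher unadjusted (7.77% of all genes), but FLAG lay above WT for 1 (8.62% of all genes). Without FLAG native replicate 2, the library with the lowest Hist values of its group, 17 Hist and 3 replacement genes were called higher in native FLAG, where 1450 of all 15899 genes were called higher (9.12%) and 1710 lower (10.8%). Without replicates 1 and 3 the native median was 0.20. The FLAG effect was larger in native than in crosslinked libraries by a median of 0.84 over the Hist genes. This was 0.35 without WT native replicate 3, 1.212 without FLAG native replicate 2 and 0.36 with the replicate block. No member was called, with or without the block (0% of all genes), none of the Hist genes was higher at an unadjusted p under 0.05 and the same fold (0.233% of all genes), and the lowest adjusted p was 0.97.

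**Figure D5:**
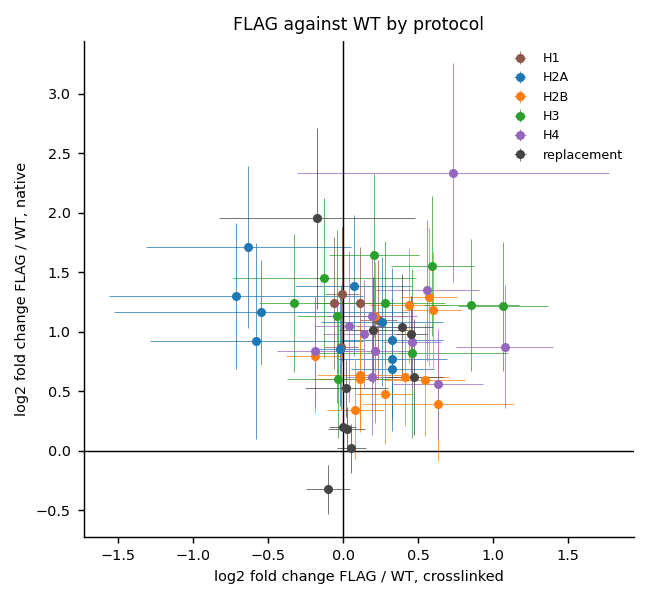
Log2 fold change of FLAG over WT in crosslinked (x axis) and native (y axis) libraries with standard errors for the 58 histone genes, coloured by class. All 48 Hist genes lie above 0 on the native axis and 34 of them on the crosslinked axis, and no gene was called in either.

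Of the genes listed as acting on histones or with them, 1 was called between protocols and none between FLAG and WT. The list of histone mRNA transcription, 3′ processing and decay held 24 names, with Tut4 and Tut7 beside their older names Zcchc11 and Zcchc6. From it 21 genes were measured and none was called in either direction (2.94% of all genes were lower and 1.17% higher after crosslinking), with a median crosslinked-native log2 fold change of 0.08. Slbp, which encodes the stem-loop binding protein, was at 0.05 ± 0.18 between protocols and 0.28 ± 0.18 between FLAG and WT. The extremes of this list between FLAG and WT were Cpsf2 at 0.40 and Cpsf1 at -0.26, both subunits of the 3′ cleavage machinery. Of 21 histone chaperone and exchange genes 1 was called lower (4.76%, near the 2.94% of all genes), Nap1l1, an H2A-H2B chaperone, which fell by 2.88 on the log2 scale after crosslinking (SE 0.71, adjusted p = 0.0459). The median of the list was 0.03. Between FLAG and WT its extremes were Anp32e, an H2A.Z chaperone, at 1.01 and Chaf1b, a subunit of the replication-coupled assembly factor, at -0.31. All 20 S phase genes were measured, none was called, and their median between protocols was -0.02. The clamp gene Pcna and the thymidylate synthase gene Tyms gave the extremes between FLAG and WT, 0.67 and -0.33. Cenpa, the centromeric H3, was at 0.57 ± 0.24 between protocols and -0.23 ± 0.24 between FLAG and WT.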

How the data were processed

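RNA from anti-FLAG immunoprecipitation was measured in 10 libraries. According to the methods, the authors trimmed reads, mapped them to GRCm38 with HISAT2 and counted them per gene with featureCounts, and limma is among the tools in the submitters' processing notes. The authors normalized the counts with DESeq2 and a quantile threshold, per the methods. The authors deposited log2 values with almost equal quantiles in every library, and which step made them equal is not given in the sources used here, nor is the counting strand. The values have no depth, so no counting error can be given, and the number of libraries limits precision.

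Groups came from the labels. For each comparison a linear model with a trended moderated variance was fitted to all 15899 genes in limma 3.58.1 (R 4.3.3), with Benjamini-Hochberg adjustment. A gene was called at an adjusted p under 0.05 and a log2 fold change over 0.58 in either direction. The steps were tested on simulated data. Members and lists were chosen with earlier results of these data known. Named were all replacement histones, the 2 Hist genes of highest mean in each class, the 4 largest and 4 smallest changes in the FLAG and protocol comparisons, called members, Hist4h4, Mex3a, Slbp, and called or extreme genes of the lists. Transcripts came from GENCODE M21 (15864 genes matched) and were searched with Python 3.11.15 and pysam 0.24.0. The search after the stop codon, the removal of GC and length trends, and leaving out 2 libraries together were chosen after seeing the data. Same-numbered FLAG and WT libraries of a protocol did not deviate together (correlations of deviations from group means -0.149 to -0.43) and were not treated as pairs. Same-numbered crosslinked and native libraries had positive ones, 0.178 and 0.154 in FLAG and 0.30 and 0.388 in WT. Libraries of unlike number reached similar values. WT crosslinked replicate 1 with WT native replicate 3 gave 0.232, and FLAG native replicate 2 with WT native replicate 3 gave 0.401. The pairing comes from this check and not from the labels, and the 2 crosslinked deviations of a genotype mirror each other. The block on these numbers was added after seeing the data.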

Additional observations from a re-analysis of the deposited data

How the results depend on the processing

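The values carry no depth, so low genes such as Hist2h3b and Hist4h4 have no counting error, and signal cannot be separated from reads shared between copies.

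For crosslinked against native libraries, 17 Hist genes were called lower. With a pseudocount of 8 the count was 2, with array weights 28 (and 1 higher, where 994 of all genes were lower, 6.25%, and 1034 higher, 6.5%, against 467 and 186 without weights), with FLAG native replicates 1 and 3 both left out 6, and among members with under 50% of their windows shared 6. Leaving out each library in turn gave 4 to 26. Replacement histones called lower numbered 1 after centring on protein-coding genes (3.13% of all genes lower) or removing the GC and length trends (2.95%), 2 with array weights, and 0 to 2 with a library left out. The pseudocount of 8 reduced the Hist median to -0.40 over all libraries, -0.21 in WT and -0.56 in FLAG, and the Hist minus replacement difference to -0.26. With array weights the fits within one genotype called 1 Hist gene lower in WT (152 of all genes, 0.956%), and 28 Hist and 3 replacement genes in FLAG (762, 4.79%). Without a library the FLAG fit called 0 to 23 Hist and 0 to 3 replacement genes lower (the 23 without FLAG native replicate 2, where 767 of all genes, 4.82%, were lower), and without both replicates its Hist median was -0.81.

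For FLAG against WT, array weights gave 7 Hist and 3 replacement genes higher in native libraries, where 1656 of all genes were called higher (10.4%) and 1921 lower (12.1%). Over all libraries the weights (0.124 in FLAG native replicate 1 to 10.2 in FLAG crosslinked replicate 2) gave Hist1h4a and Hist1h3i higher and Hist1h2ah and Hist1h2an lower (2 each, 1105 and 964 of all genes), a Hist median of -0.044 and a Hist minus replacement difference of -0.10. Leaving out a library gave 0 to 17 Hist and 0 to 3 replacement genes higher in native libraries and 0 to 1 Hist genes over all libraries (the 1 without FLAG native replicate 2, where 516 of all genes, 3.25%, were higher). The native Hist median was 0.33 with the pseudocount of 8 and 0.20 without FLAG native replicates 1 and 3, which leaves only replicate 2 in native FLAG.

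Signs of single genes were followed for the named genes alone, and these turned, none called unless said. With array weights, FLAG against WT was -0.005 for H2afv, -0.035 for H2afx, -0.30 for H2afz, -0.039 for Hist1h2bc, -1.21 for Hist1h2an (called) and -0.38 for Hist1h3a. Crosslinked against native was then -0.051 for H2afy2, 0.16 for H3f3b, 0.026 for Hist1h1d, 0.22 for Hist1h2be and 0.11 for Hist1h4i. Without both replicates, FLAG against WT was -0.009 for H2afv, -0.38 for Hist1h2an and -0.068 for Hist1h3a, and crosslinked against native was -0.019 for H2afy2, 0.15 for H3f3b, 0.021 for Hist1h1d, 0.23 for Hist1h2be and 0.10 for Hist1h4i. With a library left out, FLAG against WT ranged from -0.040 to 0.395 for Hist1h2bc and from -0.224 to 0.709 for Hist1h2an, and crosslinked against native from -0.036 to 0.096 for H2afy2 and from -0.264 to 0.021 for H3f3b. The cause was not tested.

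A pseudocount of 1, a minimum mean, quantile normalization, 1 fit of 4 groups and H2afx counted with the Hist genes kept every member count within 1.5 times and moved no median by more than the spread between replicates. The replicate block within each genotype, for crosslinked against native, called 28 Hist genes and 1 replacement gene lower over all libraries, 5 Hist genes in WT, and 34 Hist and 2 replacement genes in FLAG. The counts of the 2 genotypes cannot be compared, as said above. This block called no member for the difference in the FLAG effect. The replicate block on FLAG and WT pairs called no member in the crosslinked, native or pooled FLAG comparison, and 14 genes higher and 20 lower over all libraries. The crossed block in the crosslinked libraries, chosen after seeing the data, called 0 Hist genes. The stem-loop was found in 45 Hist genes after the stop codon against 14 at transcript ends.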
